A study of Mus musculus with 12 samples.

Results

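The constant regions of the antibody genes were followed in sorted mature B cells from the bone marrow of mice, by RNA sequencing of polyadenylated RNA and reads counted per gene. The members were the 10 genes of the count table whose Entrez number belongs to Ighm, Ighd, Ighg3, Ighg1, Ighg2b, Ighg2c, Ighe, Igha, Igkc or Iglc1, out of 27179 genes. All 10 were present and all 10 passed the filter on low counts. The rule used symbols only, not measured values. The mice were C57BL/6, and the cells had been sorted by flow cytometry as high for B220, positive for surface IgM and negative for CD93. Each of 4 groups had 3 libraries. Young wild-type mice were 9, 10 and 11 weeks old, and old wild-type mice were 98, 99 and 100 weeks old. The apoptosis-sensitive group was Bak-/- Baxfl/fl and the apoptosis-resistant group was Bak-/- BaxD/D, both 10 weeks old. Both of the latter groups lack Bak and differ in Bax, whereas the wild-type groups carry neither change. BAX and BAK are the paired effector proteins of mitochondrial apoptosis. The sources used here do not say what deletes Bax or in which cells. The replicate number marked a shared collection date within the wild-type pair of groups and within the Bak-/- pair, and no date was shared between the pairs.

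A B cell first makes its heavy chain with the mu constant region, and a mature naive cell makes IgM and IgD together from 1 long transcript by alternative splicing. Class switch recombination then deletes the DNA between switch regions and places a gamma, epsilon or alpha constant region behind the same variable region. The unswitched members are therefore Ighm and Ighd, and the switched members are Ighg3, Ighg1, Ighg2b and Ighg2c (the IgG subclasses), Ighe (IgE) and Igha (IgA). Igkc and Iglc1 are light chain constant regions, of which a B cell usually expresses either a kappa or a lambda chain. Downstream constant regions are also transcribed without recombination, as germline transcripts, so a read in a switched gene does not by itself mark a switched cell. Gene counts also pool the membrane and secreted forms, since each of the 8 heavy chain genes has 2 annotated transcripts.

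The heavy chain members lie on the minus strand of chromosome 12. Along the direction of transcription they run from Ighm at chr12:113418826-113422730 through Ighd, Ighg3, Ighg1, Ighg2b, Ighg2c and Ighe to Igha at chr12:113256204-113260236 (RefSeq gene spans, GRCm38). Igkc lies at chr6:70726435-70726754 on the plus strand and Iglc1 at chr16:19061752-19062071 on the minus strand. The IgG genes are similar in sequence, so the first 60 annotated coding bases of each are printed to show what keeps their reads apart. The sequences are from GENCODE M21 transcripts on GRCm38, 5′ to 3′ on the minus strand, and capitals mark the 22 positions at which the 4 genes do not all have the same base.
Ighg3 (chr12:113361173-113361232): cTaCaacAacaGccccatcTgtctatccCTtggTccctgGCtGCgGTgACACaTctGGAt
Ighg1 (chr12:113330464-113330523): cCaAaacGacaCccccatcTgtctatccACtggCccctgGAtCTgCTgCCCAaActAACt
Ighg2b (chr12:113307874-113307933): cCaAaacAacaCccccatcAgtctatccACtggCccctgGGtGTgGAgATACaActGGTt
Ighg2c (chr12:113288873-113288932): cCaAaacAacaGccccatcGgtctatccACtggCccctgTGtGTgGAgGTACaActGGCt
Over the aligned coding bases, Ighg2b and Ighg2c were 86.3% identical, the closest pair of IgG genes, and the other IgG pairs ran from 76.1% to 78.7%. Of all 50-base windows of exon, 5.49% in Ighg2c and 4.15% in Ighg2b also occurred exactly in another gene's annotated transcripts, mainly in each other. The share was 1.58% for Ighg3 and 0.393% for Ighg1, and no such window occurred in Ighm, Ighd, Ighe, Igha, Igkc or Iglc1. How reads shared by several genes were counted, and whether strand was used, is not given in the sources used here.

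For contrast, the same window of Igha is printed, because Igha was the 1 member to pass the test below. It carries no capitals, since it was not aligned with the IgG genes.
Igha (chr12:113260177-113260236): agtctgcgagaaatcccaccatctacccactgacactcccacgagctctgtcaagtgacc

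Total counts per library ran from 13474162 to 23539764, and immunoglobulin genes of all kinds took 0.907% to 2.58% of them. All 8 B cell markers examined had reads in every library, with a summed level of 10283 to 15588 CPM, the counts of a gene scaled to the corrected size of its library. The wild-type replicate 1 libraries of both ages, collected on 24 March, stood apart from the other 10 on the leading principal component, which held 31.9% of the variance. They carry the year 2006 in the labels where all others carry 2016. These 24 March libraries also had the lowest Ighm and Igkc levels, so the age results of the members and gene lists are also given without them. Without both, 0 of the 10 members passed with age, against 226 of all 13757 genes then tested.

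Per kilobase of annotated exon, which allows genes to be compared with each other, Ighm and Igkc led in every group and Ighd followed. In young cells the mean was 3933 ± 1164 CPM per kb (SD, n = 3) for Ighm, 2904 ± 1253 for Igkc and 999 ± 88.6 for Ighd, and the ranges of Ighm and Igkc overlapped. Iglc1 stood at 186 ± 84.5 CPM per kb, above every switched gene without overlap. The IgG2c, IgA, IgG2b and IgG3 genes followed at 12.1 ± 17.7, 9.94 ± 6.39, 9.73 ± 8.59 and 8.37 ± 5.85 CPM per kb, and no neighbours among these 4 differed beyond their ranges. Ighg1 was lower at 3.13 ± 2.60 CPM per kb, with a range that overlapped that of Ighg3, and Ighe was last at 0.036 ± 0.062. In old cells Igha had 48.0, 1600 and 181 CPM per kb in replicates 1, 2 and 3. Its mean of 610 ± 860 CPM per kb stood next after that of Ighd but rests on old replicate 2, and in old replicate 1 Igha lay below Ighg3 (71.0 CPM per kb) and Ighg2c (55.6). In apoptosis-resistant cells Ighg1 stood beside Ighg2b and Igha, at 48.9 ± 26.7 CPM per kb, where in the other 3 groups it was the lowest switched gene but Ighe. The exon lengths are those of GENCODE M21 and may differ from the annotation used for counting.

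**Figure D1:**
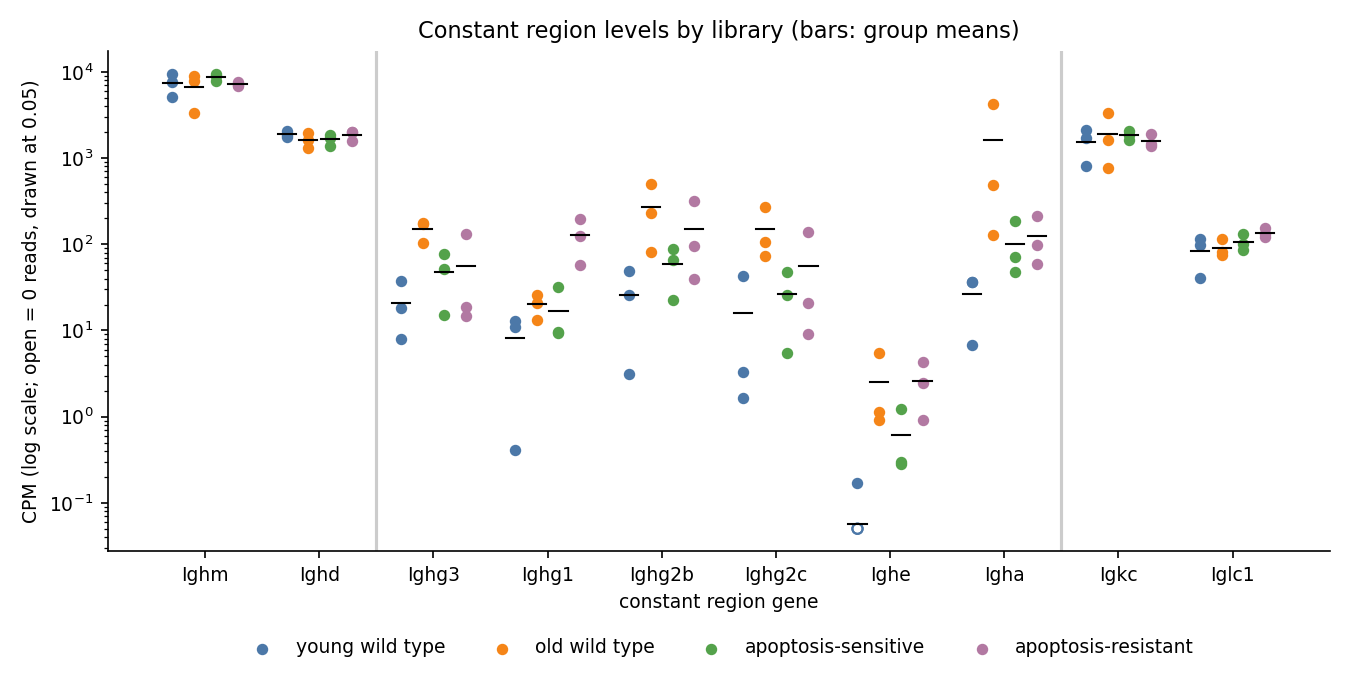
Level of each of the 10 constant region genes in each of the 12 libraries, in CPM on a log scale, coloured by group, with bars at the group means of 3 libraries. Ighm, Ighd and the light chains stay within a narrow band, whereas the 6 switched genes in the middle spread widely between libraries, and all old values of each switched gene lie above all young values.

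Among the unswitched members, Ighm, the mu chain of IgM, had 5152, 7563 and 9536 CPM in young replicates 1, 2 and 3 and 3310, 9010 and 7915 CPM in old ones. Apoptosis-sensitive cells had 9590, 7853 and 8924 CPM, whereas 6876, 7045 and 7717 CPM were found in apoptosis-resistant ones. The ages overlapped, and the lowest value at each age was that of the 24 March library. With age the log2 fold change was -0.14 ± 0.36 (SE; 95% interval -0.97 to 0.70) with an adjusted p of 0.974 by edgeR's quasi-likelihood test, and without both 24 March libraries it was -0.011. All 3 apoptosis-resistant values lay below all 3 apoptosis-sensitive values, with a log2 fold change of -0.29 ± 0.36 and an adjusted p of 0.9998.

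Ighd, the delta chain of IgD, was the steadiest member, with a highest library at 1.57 times the lowest. Its levels were 1741, 2076 and 1877 CPM in young, 1319, 1629 and 1976 in old, 1725, 1847 and 1370 in apoptosis-sensitive and 1990, 2007 and 1578 in apoptosis-resistant cells. The groups overlapped in both comparisons. The log2 fold change was -0.21 ± 0.23 with age (adjusted p 0.886) and 0.17 ± 0.23 between apoptosis-resistant and apoptosis-sensitive cells (adjusted p 0.9998). Reads in Ighd per read in Ighm came to 0.338, 0.274 and 0.197 in young and 0.398, 0.181 and 0.250 in old cells, which overlapped. The ratio was 0.180, 0.235 and 0.154 in apoptosis-sensitive and 0.289, 0.285 and 0.205 in apoptosis-resistant cells. Each apoptosis-resistant library was above the apoptosis-sensitive library of its date, by 1.61, 1.21 and 1.33 times, although the lowest of the former lay below the highest of the latter. The exon lengths of the genes differ little, and per kilobase the group means were 0.268, 0.274, 0.188 and 0.258 in the order above.

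With age, the 6 switched members were separated and the 2 unswitched members were not. For all 6 switched genes every old library was above every young library, and the old library was above the young library of its own date in all 3 pairs. Of all 13592 genes tested, 9.16% had all old values above all young values, and 22.8% were higher in all 3 date pairs. Neither unswitched gene and neither light chain gene was separated in this way. The median log2 fold change was 3.29 over the 6 switched genes and -0.03 over all genes tested, beside -0.14 for Ighm and -0.21 for Ighd. The sort selected surface IgM, and a bulk level cannot tell more cells of a kind from more RNA per cell. When adjusted over all genes, 1 of the 10 members passed at 0.05, Igha, against 2.01% of all genes tested (1.70% called higher). With the collection date as a block in the same test, 14.9% of all genes passed, and the 1 member that passed was Ighe in place of Igha. At an unadjusted p under 0.05 there were 5 members, against 11.6% of all genes, namely Ighg3, Ighg2b, Ighg2c, Ighe and Igha.

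**Figure D2:**
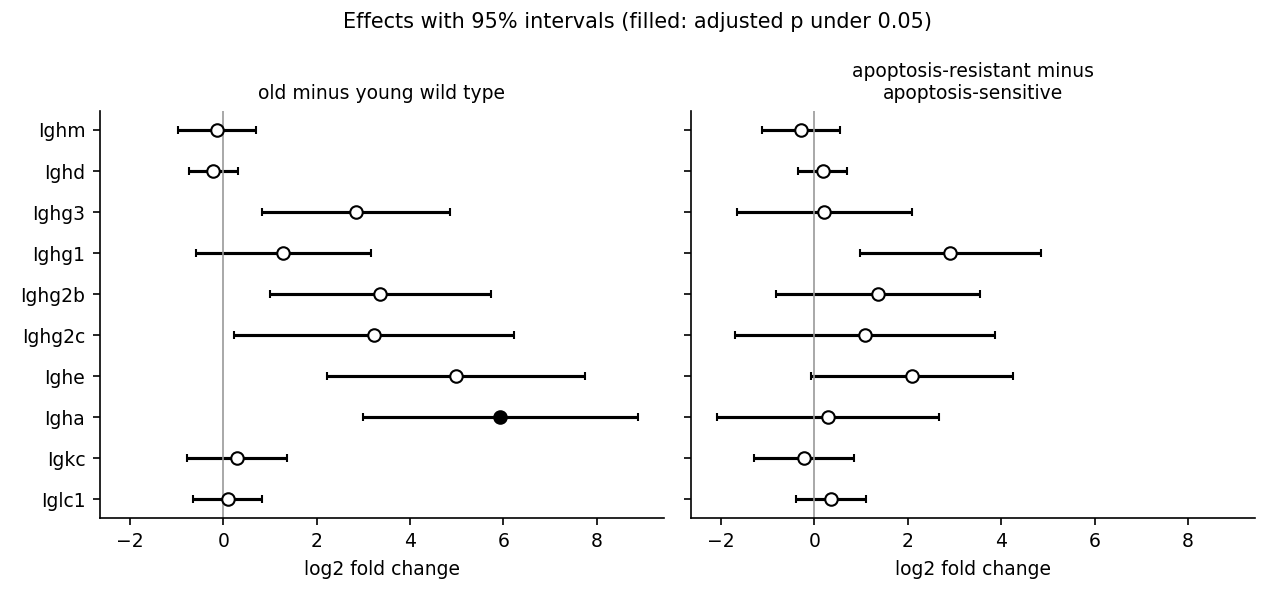
Log2 fold change of each member (points) from edgeR's quasi-likelihood test on 12 libraries, for old minus young wild type on the left and apoptosis-resistant minus apoptosis-sensitive on the right. Bars are 95% intervals derived from the F statistic of that test with 8 residual degrees of freedom. Filled points passed an adjusted p of 0.05, which with age was Igha at 5.93 and in the other comparison none, where Ighg1 had the highest value at 2.91.

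Igha, the alpha chain of the IgA of mucosal surfaces, had 6.82, 36.3 and 36.5 CPM in young replicates 1, 2 and 3 and 128, 4269 and 482 CPM in old ones. In reads these were 83, 847 and 553 against 2617, 83412 and 8961. Old replicate 2 was far above the other old libraries, and even the lowest old library was above the highest young one. The log2 fold change was 5.93 ± 1.28 (95% interval 2.99 to 8.88), and edgeR's quasi-likelihood test gave an adjusted p of 0.0385. With the collection date as a block it was 4.99 ± 1.13 with an adjusted p of 0.0614, and without both 24 March libraries 6.04 with an adjusted p of 0.0504. The change fell to 3.52 without old replicate 2 (adjusted p 0.0986). The adjusted p was also above the threshold without young replicate 1 (0.103), young replicate 2 (0.135) or young replicate 3 (0.0942), and below it without old replicate 1 (0.0186) or old replicate 3 (0.0460). The direction was up in each of these fits.

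Ighe, the epsilon chain of IgE and the rarest member, had 0, 4 and 0 reads in young replicates 1, 2 and 3, and a count of 0 allows up to 3 reads. Old cells had 5.53, 1.13 and 0.914 CPM, of which the latter values are 22 and 17 reads. All old libraries were above all young ones, and the highest was the 24 March library. The fitted log2 fold change was 4.99 ± 1.20 with an adjusted p of 0.0591, and with the collection date as a block it was 4.58 ± 0.96 with an adjusted p of 0.0112. Without both 24 March libraries it was 3.28 with an adjusted p of 0.223. With 4 reads in all of the young group, the size of this fold depends on the prior count of the fit and is not a bound.

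Ighg2b and Ighg2c, the subclasses IgG2b and IgG2c, had the largest fitted fold changes with age among the IgG genes. Ighg2b had 3.12, 25.9 and 49.1 CPM in young and 80.3, 497 and 230 CPM in old cells, with a log2 fold change of 3.37 ± 1.02 (95% interval 1.01 to 5.72; adjusted p 0.146). Ighg2c had 1.64, 3.30 and 43.1 CPM in young and 73.7, 268 and 106 CPM in old cells, with a log2 fold change of 3.22 ± 1.30 (95% interval 0.23 to 6.22; adjusted p 0.335). Old replicate 2 was again the highest for both genes, and young replicate 3 was the highest of the young for both. Without young replicate 3 the Ighg2c value was 5.87. Without both 24 March libraries the log2 fold change was 3.29 for Ighg2b (adjusted p 0.157 by edgeR) and 3.04 for Ighg2c (0.449).

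Ighg3, the subclass raised against carbohydrate antigens, had 8.05, 18.0 and 37.0 CPM in young and 178.3, 104 and 170 CPM in old cells. Old replicate 2 was the lowest old library here, unlike for Igha, Ighg2b and Ighg2c. The log2 fold change was 2.84 ± 0.87 (95% interval 0.83 to 4.84; adjusted p 0.150). Ighg1, the subclass that IL-4 promotes, had 0.411, 11.0 and 12.9 CPM in young and 13.2, 26.0 and 20.9 CPM in old cells, a narrow separation with a log2 fold change of 1.29 ± 0.81 (95% interval -0.58 to 3.16; adjusted p 0.675). Without both 24 March libraries the log2 fold change was 2.32 for Ighg3 and 0.98 for Ighg1. DESeq2 passed 4 members with age, against 5.16% of all genes, Ighg3, Ighg2b, Ighe and Igha, with adjusted p-values of 0.0405, 0.0282, 0.000807 and 4.8e-06.

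Taken as a share of all heavy chain constant region reads, switched genes made up 0.290%, 0.973% and 1.54% in young replicates 1, 2 and 3 and 9.38%, 32.7% and 9.26% in old ones. Each share has a Wilson 95% interval for counting error only, such as 1.49% to 1.60% for young replicate 3 and 9.14% to 9.39% for old replicate 3. The lowest old share was thus well above the highest young share. The means were 0.935% ± 0.626 and 17.1% ± 13.5 (SD, n = 3 each), and 0.776% and 14.02% when reads were first divided by exon length. Without old replicate 2 the old mean was 9.32%. Without the 24 March libraries the means were 1.26% and 20.98%. Igha alone gave 82.6% of the switched reads of old replicate 2, against 26.7% and 47.7% in old replicates 1 and 3. With Igha left out of both the switched and the total reads, the means were 0.675% in young and 6.63% in old cells.

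The share was 3.48%, 2.48% and 0.968% in apoptosis-sensitive replicates 1, 2 and 3 and 3.93%, 1.96% and 9.71% in apoptosis-resistant ones. The groups overlapped, and the library of the shared date was higher in apoptosis-resistant cells in 2 of the 3 pairs. Apoptosis-resistant replicate 3 was the highest of the 6, at a level reached elsewhere by old libraries alone. The means were 2.31% ± 1.27 and 5.20% ± 4.03, and the latter was 2.95% without apoptosis-resistant replicate 3.

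**Figure D3:**
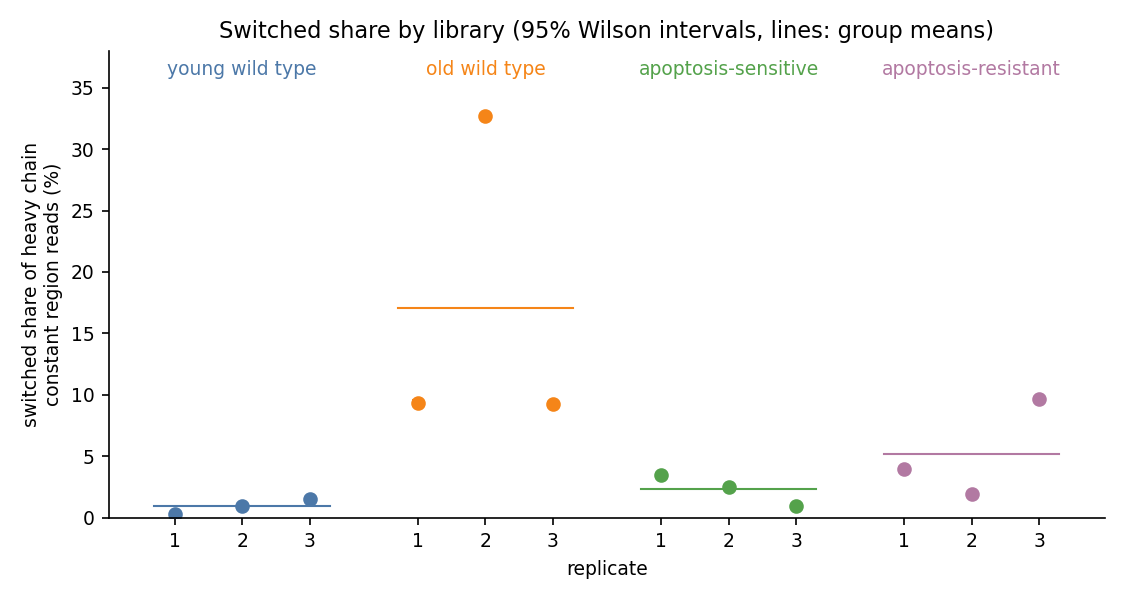
Share of heavy chain constant region reads that fell in the 6 switched genes (vertical axis, percent), for each library by group and replicate, with Wilson 95% intervals for counting error, mostly smaller than the points, and lines at group means. The 3 young libraries lie at 1.54% or less and the 3 old ones at 9.26% or more, while the apoptosis-sensitive and apoptosis-resistant libraries overlap.

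With Bax deleted on the Bak-/- background, Ighg1 was the switched gene with the highest fold change, and no member passed the test. Ighg1 had 31.9, 9.23 and 9.59 CPM in apoptosis-sensitive replicates 1, 2 and 3 and 126, 57.6 and 196 CPM in apoptosis-resistant ones. Every apoptosis-resistant library was above all 9 other libraries of the study. The log2 fold change was 2.91 ± 0.84 (95% interval 0.97 to 4.84), or 7.50-fold, with an unadjusted p of 0.00483 and an adjusted p of 0.421 by edgeR's quasi-likelihood test. Within the date pairs it was 1.98, 2.63 and 4.34. It lay between 2.46 and 3.76 when each library was left out in turn. No member passed at an adjusted p of 0.05, nor with the date block or by DESeq2, and the share of all genes that passed was 0.0441% (3.41% with the date block and 0.944% by DESeq2). At an unadjusted p under 0.05 there were 2 members, Ighg1 and Ighe, against 4.90% of all genes. Ighg1 was also the 1 member with all apoptosis-resistant values above all apoptosis-sensitive ones, against 6.32% of all genes, and Ighm was the 1 with all values below, against 8.31%.

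Ighe had 1.24, 0.294 and 0.281 CPM in apoptosis-sensitive replicates (22, 5 and 6 reads) and 2.48, 0.909 and 4.30 CPM in apoptosis-resistant ones (36, 15 and 90 reads). It was higher in apoptosis-resistant cells in all 3 date pairs, as were 22.0% of all genes, but the groups overlapped, and its log2 fold change was 2.09 ± 0.94 (unadjusted p 0.0464, adjusted p 0.9998). The other 4 switched genes went both ways between dates. Ighg3 had 76.6, 52.3 and 15.2 CPM in apoptosis-sensitive and 18.9, 14.7 and 133 CPM in apoptosis-resistant cells, and its log2 fold change was 0.21 ± 0.81, or -0.46 with the date block. Ighg2b had 87.6, 66.1 and 22.9 against 95.3, 39.2 and 316 CPM, with a log2 fold change of 1.35 ± 0.95. Ighg2c had 26.1, 47.9 and 5.47 against 20.6, 9.03 and 139 CPM, with a log2 fold change of 1.09 ± 1.21. Igha had 185, 70.8 and 47.2 against 99.3, 59.5 and 211 CPM, with a log2 fold change of 0.29 ± 1.03 (95% interval -2.09 to 2.67). Adjusted p was 0.9998 for these 4. Apoptosis-resistant replicate 3 was the highest of the 6 libraries for each of them. Without it the log2 fold change turned to -1.50 for Ighg3, -0.83 for Ighg2c and -0.33 for Igha, and fell to 0.20 for Ighg2b. Without apoptosis-sensitive replicate 3 it turned to -0.19 for Ighg3 and -0.03 for Igha.

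The makeup of the IgG reads showed the same contrast. Ighg1 gave 48.4%, 47.8% and 25.02% of all IgG reads in apoptosis-resistant replicates 1, 2 and 3. In apoptosis-sensitive cells it gave 14.4%, 5.26% and 18.0%, in young cells 3.11%, 18.9% and 9.09%, and in old cells 3.82%, 2.91% and 3.97%. The 3 apoptosis-resistant shares were thus the highest of the 12. Ighg3 gave 7.24%, 12.2% and 17.0% of the IgG reads in apoptosis-resistant cells and 34.5%, 29.8% and 28.7% in apoptosis-sensitive cells, without overlap. In old cells the IgG reads came mainly from Ighg2b, Ighg2c and Ighg3. These shares are of 1 total in each library, so that a rise of 1 subclass lowers the others.

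**Figure D4:**
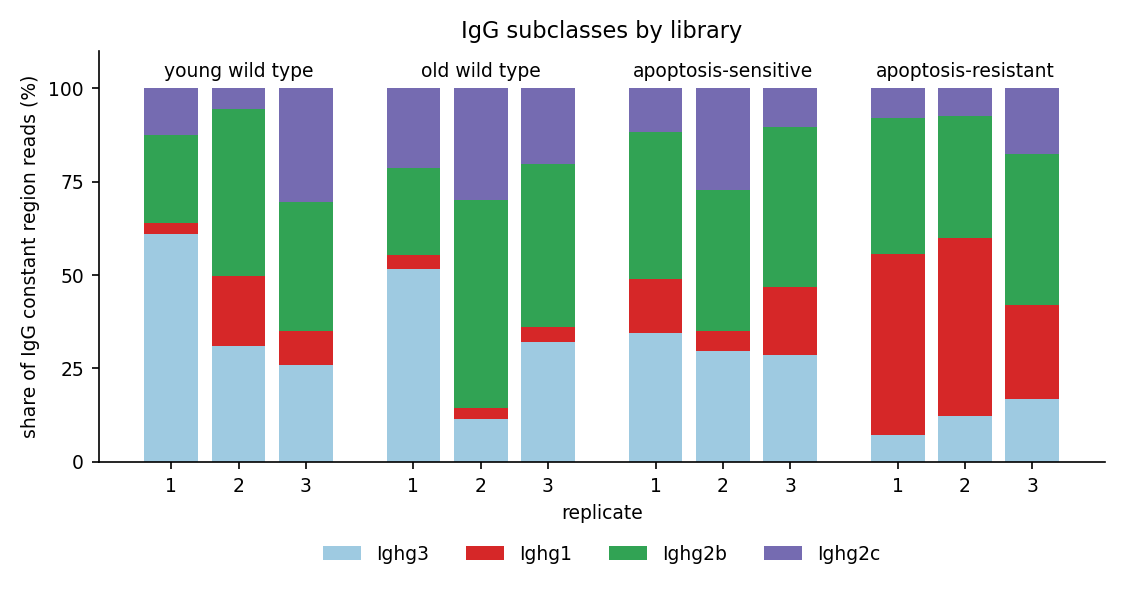
Share of IgG constant region reads (vertical axis, percent) in Ighg3, Ighg1, Ighg2b and Ighg2c, stacked to 100 for each library, by group and replicate. The red Ighg1 block takes 25.02% to 48.4% in apoptosis-resistant libraries and 2.91% to 18.9% in the other 9.

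Whether the age and Bax effects differ was tested as a contrast of the effects, which share no library. No member passed, against 0.250% of all genes (also none with the date block, against 7.03%), and 2 members had an unadjusted p under 0.05, Igha and Ighg3, against 6.88% of all genes. For Igha the age effect exceeded the Bax effect by 5.64 ± 1.56 on the log2 scale (adjusted p 0.238 by edgeR's quasi-likelihood test, 0.0185 by DESeq2, which passed 1.88% of all genes). For Ighg1 the difference was -1.62 ± 1.13, in the opposite direction, with an adjusted p of 0.971.

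The Bak-/- groups were also set against young wild-type cells, and these comparisons share the young libraries with the age comparison and share no collection date between the groups. For apoptosis-sensitive against young cells no gene at all passed (0.00% of 13592), 14 passed by DESeq2 (0.103%), and 1 member, Ighe, had an unadjusted p under 0.05, against 2.73% of all genes. Ighe and Igha had all apoptosis-sensitive values above all young values, against 4.57% of all genes. Their log2 fold changes were 2.92 ± 1.24 and 1.92 ± 1.07, with an adjusted p of 0.824 for both. For Ighe the separation lies near the floor, with 22, 5 and 6 reads in apoptosis-sensitive and 0, 4 and 0 reads in young replicates. For apoptosis-resistant against young cells no member passed, against 0.162% of all genes, and 3 had an unadjusted p under 0.05, against 6.13% of all genes. Ighg1 had a log2 fold change of 3.95 ± 0.88 (95% interval 1.91 to 5.98; adjusted p 0.168) and Ighe of 5.01 ± 1.20 (adjusted p 0.207), and DESeq2 passed both, with adjusted p-values of 0.00546 and 0.00264, against 1.09% of all genes. Ighg1, Ighe, Igha and Iglc1 were higher in apoptosis-resistant cells without overlap, against 6.64% of all genes. Collection date and group cannot be told apart in either of these comparisons.

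Neither light chain gene passed in any comparison. Igkc, the kappa constant region, had 811, 1713 and 2112 CPM in young, 766, 3309 and 1641 in old, 1864, 1643 and 2056 in apoptosis-sensitive and 1463, 1379 and 1897 in apoptosis-resistant cells. Old replicate 2, the library with the highest Igha, was also the highest for Igkc, and the 24 March libraries were the lowest. The log2 fold change was 0.30 ± 0.46 with age (adjusted p 0.940), or -0.35 without old replicate 2, and -0.23 ± 0.46 for Bax (adjusted p 0.9998). Iglc1, a lambda constant region, had 41.2, 97.4 and 114 CPM in young and 74.2, 116 and 80.4 in old cells, with a log2 fold change of 0.09 ± 0.32 (adjusted p 0.981) that turned to -0.11 without both 24 March libraries. It had 99.6, 87.0 and 132 CPM in apoptosis-sensitive and 123, 133 and 154 CPM in apoptosis-resistant cells, higher in the latter in all 3 date pairs with overlap (log2 fold change 0.36 ± 0.32, adjusted p 0.9998).

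The other lambda constant regions in the table, Iglc2 and Iglc3, are not members but are needed for a lambda share. Their first 60 coding bases are printed beside those of Iglc1, on the minus strand of chromosome 16, with capitals at the 13 positions where the 3 differ.
Iglc1 (chr16:19062012-19062071): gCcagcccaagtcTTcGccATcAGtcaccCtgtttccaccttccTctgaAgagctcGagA
Iglc2 (chr16:19198793-19198852): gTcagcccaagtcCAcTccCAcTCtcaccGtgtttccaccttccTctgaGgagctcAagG
Iglc3 (chr16:19065622-19065681): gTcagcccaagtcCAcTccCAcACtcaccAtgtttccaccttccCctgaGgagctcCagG
Iglc2 and Iglc3 were 96.5% identical over aligned coding bases, against 74.8% and 75.4% between Iglc1 and each of them. Reads of Iglc2 and Iglc3 are therefore uncertain one by one, and they were summed with Iglc1. Of their 50-base windows, 10.5% in Iglc2 and 22.3% in Iglc3 also occurred in another gene's transcripts. For Iglc3 this was mainly 2010309G21Rik, which is outside the sum, so summing does not settle all shared reads. Lambda genes took 35.1%, 24.9% and 21.1% of light chain constant region reads in young and 50.6%, 17.6% and 21.7% in old cells. The highest of these at each age was the 24 March library, and the direction with age differed between dates. Without the 24 March libraries the means were 23.03% in young and 19.7% in old cells. Lambda took 19.3%, 19.8% and 22.6% in the apoptosis-sensitive libraries and 29.4%, 31.9% and 27.2% in the apoptosis-resistant ones. The latter did not overlap with the former and were higher in all 3 date pairs, by 10.0, 12.1 and 4.60 percentage points.

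Across the 12 libraries, which share groups, depth and dates, pairs of members differed in how closely their log2 levels varied together. Pearson's r was 0.92 between Ighg2b and Ighg2c, 0.91 between Ighg2b and Igha and 0.89 between Ighg3 and Ighg2c, but 0.40 between Ighg3 and Ighg1. It was 0.88 between Ighm and Igkc and 0.27 between Ighm and Igha. Among 11051 other named genes, those most like Igha were Itm2c (r = 0.97), Flot2 (0.96) and Itgb1 (0.96). Those most like Ighg2b were Prdm1 (0.96), which encodes Blimp-1, a transcription factor of plasma cells, Cxcr3 (0.95) and Fscn1 (0.95), and those most like Ighg2c were Shb (0.94), Fam135a (0.94) and Prdm1 (0.93). Ighg3 was most like Ttc8 (0.93), Slc7a7 (0.92) and Gatm (0.92), and Ighg1 most like Pitpnb (0.95), Slc25a29 (0.89) and Arhgap6 (0.88). Ighe was most like Zscan21 (0.89), Zfp365 (0.87) and Zfp146 (0.87). For the unswitched genes these were Ddx19a, Mcm4 and Kdelr2 (0.97 each) with Ighm, and Mapk6, Ube3b and Ubap2l (0.93 each) with Ighd. For the light chains they were Rragc, Lgmn and Ube2j1 (0.94 each) with Igkc, and Ndufaf8, Rpl36al and Rps27rt (0.96 each) with Iglc1. These are descriptions over the same 12 libraries.

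The date block passed more genes of all kinds, 14.9% with age and 3.41% for Bax, against 2.01% and 0.0441% without it. The block counts of the gene lists below stand beside those shares. No gene of the class switching machinery passed the test with age. Of 35 tested genes of this machinery, among them those of mismatch repair, base excision repair and end joining, 0 passed in either direction with age (median log2 fold change -0.05), 0 rose and 3 fell with the date block, and 0 passed for Bax (1 rose and 1 fell with the block). The most abundant were Parp1, a sensor of DNA breaks, with 594 ± 135 CPM in young and 435 ± 111 CPM in old cells, and Supt5, a transcription elongation factor, at 349 ± 67.3 and 314 ± 32.2 CPM. Parp1 was 1 of the 3 that fell with the date block (adjusted p 0.00869), beside H2ax (0.00708) and Trp53bp1 (0.0364).

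Of 32 receptors and transcription factors that direct the choice of isotype, 2 rose with age and 0 fell (6 and 3 with the date block, and 0 of either without the 24 March libraries), and 0 passed for Bax (0 rose and 1 fell with the block). Tbx21, which encodes T-bet, a factor that promotes IgG2c, went from 3.72 ± 2.62 CPM to 26.1 ± 11.5 CPM (log2 fold change 2.79 ± 0.64, adjusted p 0.0495). Id2, an inhibitor of E proteins, went from 3.13 ± 1.41 to 11.9 ± 0.626 CPM (1.92 ± 0.43, adjusted p 0.0467). Of 16 receptors for immunoglobulin, 2 rose and 1 fell with age (3 and 3 with the date block), and 0 passed for Bax (1 rose and 1 fell with the block). Fcrl5, an Fc receptor-like protein of B cells, went from 21.8 ± 2.47 to 77.8 ± 12.5 CPM (1.84 ± 0.17, adjusted p 0.001005), and Fcer1g, the signalling chain of Fc receptors, from 2.54 ± 1.97 to 18.8 ± 12.1 CPM (2.89 ± 0.65, adjusted p 0.0480). Fcamr, the Fc receptor for IgA and IgM, fell from 110, 33.4 and 32.2 CPM in young replicates 1, 2 and 3 to 6.90, 1.79 and 4.14 CPM in old ones (-3.76 ± 0.62, adjusted p 0.0112). Without the 24 March libraries Fcrl5 (1.81) and Fcamr (-3.47) passed, whereas Fcer1g did not (adjusted p 0.101). Of 19 genes of immunoglobulin assembly and RNA processing, 0 passed for age (1 rose and 4 fell with the date block) or Bax (0 rose and 2 fell with the block). The most abundant of them, Cd79a and Cd79b, which form the signalling part of the B cell receptor, were at 1526 ± 336 and 1374 ± 397 CPM in young and 1261 ± 403 and 1120 ± 324 CPM in old cells.

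For plasma cells 0 of 16 markers passed with age (2 rose and 0 fell with the date block), 13 had a positive log2 fold change and the median was 0.42. Their summed level was 1348 to 1776 CPM in young, 1567 to 3308 in old, 1552 to 1936 in apoptosis-sensitive and 1506 to 1775 in apoptosis-resistant cells, with the highest value in old replicate 2, and 1 marker, Tnfrsf17, was at 0 in some libraries. The most abundant, Txndc5, a folding enzyme of the endoplasmic reticulum, had 383, 363 and 378 CPM in young and 595, 727 and 483 CPM in old cells (adjusted p 0.112). Jchain, which encodes the chain that joins IgA dimers and IgM pentamers and is named after its values were seen, had 16.7, 62.7 and 280 CPM in young and 29.0, 1050 and 179 CPM in old cells. It had 358, 111 and 62.0 CPM in apoptosis-sensitive and 20.3, 41.3 and 179 CPM in apoptosis-resistant cells. Old replicate 2 was thus the highest library for Jchain, Igha, Ighg2b, Ighg2c and Igkc alike. Young replicate 3, however, had more Jchain (280 CPM) than old replicate 3 (179 CPM), with 36.5 against 482 CPM of Igha. The log2 fold change of Jchain with age was 1.81 ± 1.27 (adjusted p 0.738), and the part of plasma cells in the levels of the members was not tested.

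**Figure D5:**
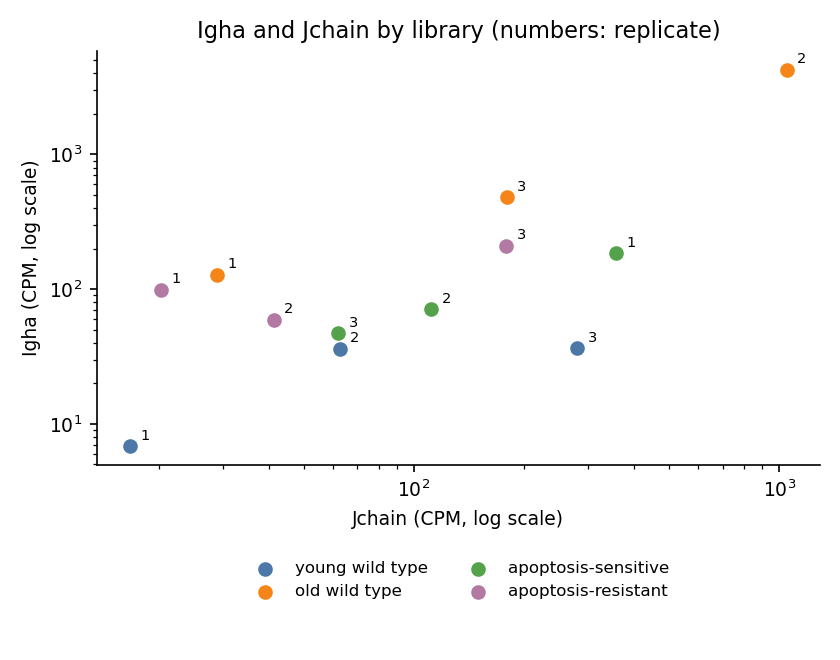
Igha (vertical axis) against Jchain (horizontal axis) in each of the 12 libraries, both in CPM on log scales, coloured by group and numbered by replicate. Old replicate 2 lies at the top right with 1050 CPM of Jchain and 4269 CPM of Igha, while old replicate 1 has 128 CPM of Igha at 29.0 CPM of Jchain.

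Of 8 markers of memory and age-associated B cells, 6 rose with age and 0 fell, and the same number rose with the date block (5 without the 24 March libraries). They include Fcrl5 and Tbx21 above, with Nt5e, which went from 2.69 ± 1.10 to 54.2 ± 26.0 CPM (log2 fold change 4.34 ± 0.58, adjusted p 0.00514), Cd80, from 2.67 ± 0.252 to 19.4 ± 10.1 CPM (2.86 ± 0.40, adjusted p 0.00563) and Itgax, from 0.845 ± 0.811 to 15.6 ± 8.20 CPM (4.22 ± 0.67, adjusted p 0.0100). The summed level of the list was 277 to 390 CPM in young and 624 to 710 CPM in old cells without overlap, and 371 to 473 CPM in the Bak-/- groups. Of 8 B-1 cell markers, 3 rose with age, Ahr, Bhlhe41 and Plscr1 (6 rose and 1 fell with the date block, and 2 rose without the 24 March libraries), with a summed level of 99.1 to 132 CPM in young and 228 to 324 CPM in old cells. Of 9 markers of immature and precursor B cells, 3 fell with age, Cd93, Sox4 and Lef1 (6 with the date block, and 3 without the 24 March libraries), with a summed level of 63.0 to 106 CPM in young and 15.8 to 33.4 CPM in old cells. Of 8 germinal centre markers, 1 rose with age, Fas (2 rose and 2 fell with the date block, and 0 of either without the 24 March libraries). The germinal centre sum was 169, 166 and 269 CPM in apoptosis-resistant replicates 1, 2 and 3. These lay above the 114, 152 and 87.5 CPM of the apoptosis-sensitive replicates without overlap. In young cells the sum was 120 to 175 CPM and in old cells 102 to 136 CPM. All 8 germinal centre markers had a positive log2 fold change for Bax, with a median of 1.57 against -0.02 over all genes tested. In none of the B cell lists above did a gene pass for Bax without the block. With it, 1 germinal centre marker rose, 1 memory marker rose and 1 fell, and 2 markers of immature cells fell. The part of these states in the levels of the switched members was not tested.

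Some markers of cells outside the B lineage were higher in old cells. With age 2 of 7 T cell markers rose, Cd3g and Trac, with a summed level of 35.9 to 72.0 CPM in young and 40.3 to 76.2 CPM in old cells, and Cd8a, Cd3d and Cd3e were at 0 in some libraries. Ncr1 was the 1 of 3 tested NK cell markers to rise, with a sum of 0.164 to 0.857 CPM in young and 3.12 to 5.16 CPM in old cells. Adgre1 was the 1 of 6 monocyte and macrophage markers to rise, with sums of 21.2 to 131 CPM in young and 52.6 to 197 CPM in old cells, and Cxcl12 the 1 of 5 stromal markers, with 2.63 to 22.0 and 19.6 to 158 CPM. With the date block 5, 3, 4 and 5 markers of these lists rose, and without the 24 March libraries 1, 0, 1 and 2. No granulocyte, erythroid or mast cell and basophil marker passed with age, and none of these 7 lists had a call for Bax without the block; with it 1 monocyte and macrophage marker rose. Granulocyte sums were 629, 516 and 565 CPM in young replicate 3, old replicate 3 and apoptosis-sensitive replicate 1 and at most 157 CPM in the other 9 libraries. The part of these cells in the levels of the members was not tested.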

How the data were processed

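The authors deposited whole-number read counts per gene for 12 libraries in 1 table. Reads were aligned or counted with Subread and featureCounts on mm10, per the submitters' processing notes. Their versions, the annotation and the strand setting are not given in the sources used here. Per the labels, RNA was polyadenylated and made into TruSeq v2 libraries, and the series design states 3 biological replicates per group. RefSeq gave symbols for 25275 of the 27179 genes, and the 1904 others were tested but not named.

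All 12 libraries were fitted by group with edgeR 4.0.16 (R 4.3.3) by the robust quasi-likelihood test with TMM scaling, after filterByExpr with its minimum count of 10 (13592 genes, 8 residual degrees of freedom). Adjustment ran over all genes by the Benjamini-Hochberg method. An adjusted p without a tool's name is from this test. The threshold was 0.05. Each SE is the size of the log2 fold change over the square root of the test's F statistic. The 95% intervals take 8 residual degrees of freedom and can be wider than the test implies. For Ighe with Bax the interval was -0.07 to 4.25, while this test gave an unadjusted p of 0.0464. The text does not say whether animals were pooled.

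The labels give the same collection date to same-numbered wild-type libraries and to same-numbered Bak-/- libraries. Same-numbered libraries also deviated together from their group means (r = 0.74, 0.51 and 0.55 in wild type and 0.28, 0.32 and 0.49 in Bak-/-). Deviations cancel within a group of 3, so the 24 March libraries alone can make the other wild-type pairs deviate together. Differently numbered libraries were not compared, so these values do not show a pairing by date. Because the labels give shared dates, a date block was fitted as an alternative, with 4 residual degrees of freedom. Other alternatives were DESeq2 1.42.0, other scalings, no filter, the 6 compared libraries alone and each library left out. Leaving out both 24 March libraries was added after seeing the data. Members and lists were chosen with earlier results of these data known. All 10 members were named, with up to 4 genes per list that passed, or its 2 most abundant if none did, and the 3 most correlated genes. The fit was tested on simulated data.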

Additional observations from a re-analysis of the deposited data

How the results depend on the processing

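The number of members that passed as higher with age was 1. It was 4 with DESeq2, 0 with the 6 compared libraries alone and 0 without both 24 March libraries, and 0 to 1 when each library was left out in turn (0 without young replicate 1, 2 or 3 or old replicate 2). DESeq2 also passed 2 members for apoptosis-resistant against young cells and 1, Igha, for the difference of effects, where edgeR passed 0. Other scalings changed no call of a member. The count over all genes with age was 273, and 700 with DESeq2 and 2028 with the date as a replicate block. It was 1 with the 6 libraries alone, 226 without both 24 March libraries and 75 to 238 when 1 library was left out. For Bax it was 6, and 128 with DESeq2, 463 with the block and 11 without the filter.

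The replicate block by collection date moved Igha to the other side of the threshold (4.99, adjusted p 0.0614) and Ighe to the passing side (4.58, adjusted p 0.0112), and changed no other call of a member. It turned Ighg3 for Bax to -0.46. It could not be fitted for comparisons of the Bak-/- groups with young cells, which share no date. Without the filter Igha no longer passed with age (5.94, adjusted p 0.115) and Ighe did (4.95, adjusted p 0.0408). Without both 24 March libraries Iglc1 turned to -0.11 with age, and Igkc to -0.026 for apoptosis-sensitive and -0.25 for apoptosis-resistant against young cells.

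When 1 library was left out, the log2 fold change changed sign in 23 fits. None of these was of Igha with age, the call that passed. With age the values ran from -0.40 to 0.19 for Ighm, -0.35 to 0.68 for Igkc and -0.22 to 0.36 for Iglc1. For Bax they ran from -1.50 to 0.74 for Ighg3, -0.83 to 1.85 for Ighg2c and -0.33 to 1.08 for Igha. For apoptosis-sensitive against young cells they ran from -0.025 to 3.38 for Ighg2c and -0.018 to 0.56 for Igkc. For apoptosis-resistant against young cells they ran from -0.23 to 0.20 for Ighm, -0.092 to 0.089 for Ighd, -0.31 to 2.10 for Ighg3, -0.10 to 4.49 for Ighg2c and -0.25 to 0.34 for Igkc. For the difference of effects they ran from -0.12 to 0.46 for Ighm and -0.13 to 0.90 for Igkc. The causes were not tested. At this depth the young group had 4 reads of Ighe in all, which limits its fold.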
